A study of Mus musculus with 4 samples.

Results

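Alveolar macrophages were studied in single-nucleus RNA sequencing of mouse lung, as the 17783 barcodes that carried their RNA among 134745 barcodes with 1500 or more unique molecular identifiers (UMIs, each a counted RNA molecule) and 9212059 barcodes in all. A barcode was taken as an alveolar macrophage nucleus when it met 3 conditions beside this depth. It held 3 or fewer UMIs in total from the endothelial genes Pecam1, Cdh5, Tek and Ptprb, it held UMIs of 4 or more of the 8 genes Kcnn3, Egfem1, Htr2c, Kcnip4, C530008M17Rik, Pik3ap1, Gm27008 and Gm47507, and the share of its UMIs from these 8 genes was 1.5 times or more that of the near-empty barcodes with 300 to 800 UMIs in the same library. The nuclei were thus chosen by the UMIs of these 12 genes, and their levels are given below as a description. The libraries came from 2 WT mice of strain C57/BL6J and 2 VEcad-TRF2DN-Tg mice (Tg), with 1 lung library per mouse. By the study's methods all were males, used for experiments at 8 to 9 weeks of age. All were kept in chronic hypoxia, so the age at sampling can be higher. The Tg mice, bred as heterozygotes, express a dominant-negative TRF2, which removes telomere protection, under the VE-cadherin promoter, so that the transgene is directed to endothelial cells and not to macrophages. The question for the macrophages was how their number and their RNA differed between lungs with and without prematurely senescent endothelium.

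Alveolar macrophages live on the air side of the alveolus, where they clear surfactant, inhaled particles and dying cells. They arise around birth under GM-CSF and TGF-beta, whose signals induce the transcription factor PPAR-gamma and with it the genes of lipid uptake and export, and they maintain themselves by local division. They are told from the interstitial macrophages and monocytes of the lung by Siglec-F, CD11c (Itgax), and low levels of CX3CR1 and complement C1q.

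PU.1 (Spi1), the factor that all macrophages need, binds DNA at a core of the letters GAGGAAG, and 3 promoters of genes used below are printed because they hold these letters. Of 26 genes (the 8 that chose the nuclei and 18 further defining genes of alveolar macrophages) 20 matched a promoter in RefSeq, GRCm38.p6, with 28 windows of 250 bases before a transcription start. The letters or their reverse complement CTTCCTC stood in 5 of the 28 windows (17.9%), those of Fabp1, Marco, Mrc1, Pik3ap1 and Siglecf, and in 4477 of all 32851 windows (13.6%). The match is a description and says nothing about binding in these lungs. The sequences are written 5′ to 3′ with the match in capitals.
Siglecf (chr7:43351091-43351340, plus strand): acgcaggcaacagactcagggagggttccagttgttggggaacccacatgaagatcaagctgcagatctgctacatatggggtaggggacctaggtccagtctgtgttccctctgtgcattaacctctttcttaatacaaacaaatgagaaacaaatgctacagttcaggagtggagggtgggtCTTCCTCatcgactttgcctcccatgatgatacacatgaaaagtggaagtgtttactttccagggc
Mrc1 (chr2:14229164-14229413, plus strand): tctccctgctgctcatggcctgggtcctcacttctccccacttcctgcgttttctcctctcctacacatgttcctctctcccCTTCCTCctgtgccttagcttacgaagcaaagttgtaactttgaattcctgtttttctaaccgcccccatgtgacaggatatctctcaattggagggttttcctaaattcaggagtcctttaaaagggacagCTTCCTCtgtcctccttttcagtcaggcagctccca
Pik3ap1 (chr19:41385103-41385352, minus strand): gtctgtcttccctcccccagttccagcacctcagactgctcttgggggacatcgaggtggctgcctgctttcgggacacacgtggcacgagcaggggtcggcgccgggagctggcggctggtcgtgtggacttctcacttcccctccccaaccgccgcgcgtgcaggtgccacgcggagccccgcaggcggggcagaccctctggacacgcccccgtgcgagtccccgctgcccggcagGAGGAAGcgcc
In these windows the match starts 66 bases before the transcription start of Siglecf, the lectin receptor that defines these cells, and 11 bases before that of Pik3ap1, an adaptor of PI3-kinase signaling. Mrc1, the mannose receptor, has a pair of matches, the first of them 168 bases before its start.

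Throughout, values are given in the order WT 1, WT 2, Tg 1 and Tg 2, and levels are CPM, the UMIs of a gene per 1000000 UMIs summed over a class in 1 mouse. The libraries held 770, 3678, 4922 and 8413 alveolar macrophage nuclei with 2767866, 14310768, 15253466 and 33116348 UMIs in total, so WT 1 gave the fewest nuclei and the least precise levels. Their median depth was 2883.5, 2541, 2689 and 3304 UMIs, against 1852, 1941, 2468 and 2349 UMIs in the other barcodes with 1500 or more UMIs, which are called the other barcodes below and which can include droplets without a nucleus. Any pair of mice shared 0 to 6 barcode sequences among these nuclei. Free RNA, the RNA that leaks from lysed cells into every droplet, was read from the barcodes ranked after the first 45000 and up to 90000 by UMIs. This range began at 1178, 1296, 988 and 1474 UMIs and ended at 7, 10, 8 and 11 UMIs, so its upper end can hold nuclei. The libraries held 55760, 53903, 44103 and 65138 barcodes with 1000 or more UMIs. The range thus took in barcodes of this depth in both WT mice and Tg 2 and none in Tg 1, and its content differed between mice. From airway secretory genes such as Scgb1a1, free RNA was estimated at 45.6, 49.0, 29.8 and 35.9% of the UMIs of the nuclei. For the other barcodes the estimate was 66.1, 71.0, 34.3 and 47.6%. It took every UMI of these genes as free RNA. The other barcodes can include airway secretory nuclei, which make these RNAs themselves, so their estimate can be too high. The estimated share was higher in both WT mice, in the nuclei and in the other barcodes, and this moves with genotype in every comparison below. Mitochondrial UMIs made up 0.0575, 0.0901, 0.290 and 0.294% of the UMIs of the nuclei, higher in both Tg mice, and 0.122, 0.146, 0.825 and 0.728% of free RNA.

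Each of the 8 genes that chose the nuclei was detected in a larger share of them than of the other barcodes in every mouse. Their levels differed widely. Kcnip4, the most abundant, was also detected in 82.4, 95.1, 56.6 and 79.2% of the other barcodes. Gm27008 was detected in 7.66, 9.60, 52.2 and 44.1% of the nuclei. Kcnn3, a calcium-gated potassium channel (chr3:89520164-89675132, GRCm38), was at 292, 541, 594 and 521 CPM, against 27.9, 75.2, 41.6 and 51.5 CPM in the other barcodes. Kcnip4, a potassium channel partner (chr5:48389502-49524907), was at 5153, 7224, 6183 and 6995 CPM, and the serotonin receptor gene Htr2c (chrX:146962513-147197277) at 742, 1245, 1118 and 1082 CPM. Pik3ap1 was at 654, 993, 931 and 859 CPM, Egfem1 at 223, 290.2, 199.6 and 321 CPM, C530008M17Rik at 388, 604, 621 and 656 CPM and Gm47507, a lincRNA, at 176, 198, 239.9 and 211 CPM. WT 1 had the lowest value for all of these but Egfem1, where Tg 1 was lower. Gm27008, annotated antisense to the potassium channel gene Kcna3 (chr3:106934382-107093894), was at 24.2, 29.8, 273 and 170.5 CPM, with both Tg mice far above both WT mice. It made up 0.316, 0.268, 2.69 and 1.58% of the UMIs of the 8 genes. The summed share of the 8 genes was at the median 4.27, 2.72, 12.4 and 6.89 times that of the near-empty barcodes, so the nuclei of the Tg libraries stood farther from their background than those of the WT libraries. Of the nuclei, 66.6, 45.6, 97.7 and 84.4% were at 3 times or more. At the edge, the nearest nucleus inside was at 1.5 in every library and the nearest barcode outside at 1.48 to 1.5, and 97, 1162, 33 and 551 nuclei lay between 1.5 and 2 times.

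The label was checked on 18 defining genes of alveolar macrophages that the rule did not use. Of these, 14 were higher in the nuclei than in the other barcodes of the same mice past the edgeR threshold, 0 were lower, and the same 14 were higher in each of the 4 mice. Over all 19263 genes tested 55.0% passed (27.4% higher and 27.6% lower), and 23.1% were higher in each of the 4 mice. Every count of a list against the other barcodes below stands beside these shares. The rule itself drew the line between the classes, which also differed in depth and in estimated free RNA. The differences are thus a description and not a test of identity, and the causes of this share were not tested. The median log2 difference was 0.93 over the 18 genes and -0.04 over all genes. Marco, Ear1, Ear2 and Fabp1 were the 4 of the 18 that did not pass, and all 4 were at least as abundant in free RNA as in the nuclei in WT 2, Tg 1 and Tg 2. Summed over the 18 genes, the level was 12271, 12087, 8438 and 10550 CPM in the nuclei. In free RNA it was 4897, 9425, 6567 and 11996 CPM, above the nuclei in Tg 2. Genes that passed could thus be abundant in free RNA too. None of the 18 was at 0 in any mouse.

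Among the transcription factors and receptors, Pparg, the master regulator of these cells, was at 701, 967, 911 and 964 CPM in the nuclei and at 136, 223, 106 and 156 CPM in the other barcodes, a log2 difference of 2.67 ± 0.14 (SE, n = 4 mice). All 4 values of the nuclei lay above all 4 of the other barcodes. At least 1 Pparg UMI was seen in 65.5, 71.2, 84.4 and 83.4% of the nuclei and in 26.2, 40.7, 19.8 and 30.8% of the other barcodes, where free RNA gives a share of its own. The receptors of GM-CSF, the growth factor these cells depend on, were higher as well. Csf2rb, their shared beta chain, was at 151, 156, 193 and 179 CPM against 35.2, 61.8, 41.3 and 71.9 CPM (1.84 ± 0.14), and the alpha chain Csf2ra differed by 1.34 ± 0.17 on the log2 scale. Tgfbr1, the TGF-beta type I receptor, was at 836, 719.7, 667 and 631 CPM against 263, 263, 129 and 202 CPM (1.90 ± 0.13). The factors Tfec and Mitf, which drive lysosomal and macrophage genes, differed by 2.62 ± 0.18 and 1.80 ± 0.10, and Spi1 by 1.91 ± 0.11. Maf, a factor of other tissue macrophages, was lower, by -0.57 ± 0.06. In the list of 20 growth factor receptors and transcription factors, 14 were higher, 3 lower (among them Maf and Il1rl1, the IL-33 receptor) and 3 did not pass, among them Cebpb at 137, 245, 164 and 198 CPM.

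The genes of lipid handling were the next group, with 13 of 20 higher, 4 lower and a median log2 difference of 0.50. Abcg1, which exports cholesterol, was at 409, 541, 712 and 665 CPM against 68.1, 192, 144 and 251 CPM (2.05 ± 0.18). Cidec, a lipid droplet protein, was at 21.0, 59.4, 90.6 and 76.0 CPM against 2.75, 18.0, 20.9 and 27.5 CPM (2.02 ± 0.16). Plin2, a coat protein of lipid droplets, differed by 1.43 ± 0.12, Nceh1, a cholesteryl ester hydrolase, by 1.34 ± 0.08, Cpt1a, the entry enzyme of mitochondrial fatty acid oxidation, by 1.00 ± 0.07, and Lpl, lipoprotein lipase, by 0.88 ± 0.16. Cd36, Fabp5, Npc2 and Scd2 were the 4 that were lower, and each was higher in free RNA than in the nuclei in all 4 mice. The remaining 3 of the list did not pass. Pparg, Abcg1, Cidec and Lpl here, and Mrc1, Itgax, Siglecf, Atp6v0d2, Ccl6 and Chil3 in the lists below, are also defining genes. The counts of these lists are thus not separate from that of the defining genes.

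Receptors for particles and dying cells had the highest median of the lists of function, at 1.20, with 12 of 16 higher and Itgam and Stab1 lower. Mertk, the receptor for apoptotic cells, was at 965, 914, 1009 and 962 CPM against 212, 265, 145 and 208 CPM (2.36 ± 0.14), and its levels in the 4 mice differed by little. Mrc1 was at 1141, 1432, 1179 and 1143 CPM against 250.3, 521, 193 and 340.2 CPM (2.11 ± 0.16). Axl, of the Mertk family, differed by 1.80 ± 0.15, Siglec1 by 2.01 ± 0.21, and Cd200r1, an inhibitory receptor, by 2.34 ± 0.18. Siglecf, whose promoter is printed above, was at 9.75, 20.9, 32.8 and 33.9 CPM against 2.37, 11.0, 13.8 and 22.4 CPM (1.13 ± 0.15) and gave a UMI in 2.99, 7.31, 9.45 and 12.2% of the nuclei and in 0.573, 2.87, 3.94 and 6.55% of the other barcodes. It was thus detected in a minority of the nuclei of each mouse. In both Tg mice its level in free RNA, given below, was above that in the nuclei. Atp6v0d2, a proton pump subunit of the lysosome, was at 1244, 1236, 1189 and 1120.5 CPM against 281, 303, 137 and 245 CPM (2.48 ± 0.16). Of the 13 lysosome genes 5 were higher, 1 lower (Ctsl) and 7 did not pass, where 27.4% of all genes were higher.

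**Figure D1:**
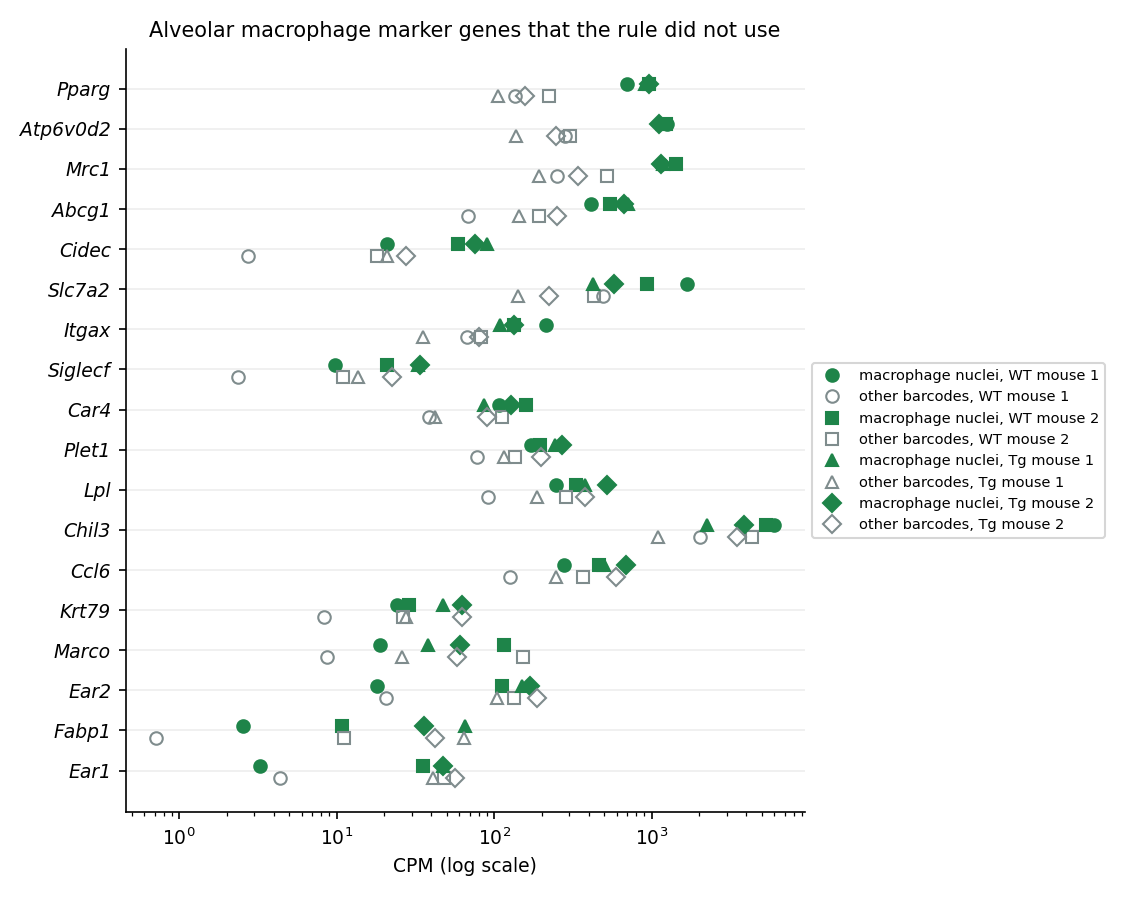
Levels of the 18 defining genes of alveolar macrophages in the nuclei (filled) and in the other barcodes (open), 1 point per mouse, as CPM on a log axis. The points of Pparg, Atp6v0d2, Slc7a2 and Abcg1 in the nuclei lie above those in the other barcodes of the same mouse, while those of Marco, Ear1, Ear2 and Fabp1 overlap.

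Channels and purinergic receptors, through which macrophages sense damage and calcium, were higher for 9 of 12 genes (median 0.72), with Trpv4 and Kcnj2 lower. P2ry6, a nucleotide receptor, was at 43.7, 44.9, 69.1 and 46.5 CPM against 20.6, 18.6, 14.7 and 17 CPM (1.66 ± 0.16), and Hvcn1, a proton channel, differed by 1.22 ± 0.17. Of 20 inflammatory and secretory genes 11 were higher and 3 lower. Nlrp3, an inflammasome sensor, was at 28.5, 25.9, 32.3 and 29.3 CPM against 5.13, 8.64, 5.42 and 8.20 CPM (2.18 ± 0.15), and Il18, the cytokine it releases, was at 32.5, 112, 198 and 146 CPM against 10.4, 37.7, 51.1 and 59.9 CPM (1.73 ± 0.10). Il18 varied more between mice than Nlrp3, with WT 1 the lowest in both classes. Of 11 genes of the type 2 response tested, Chil3, Il4ra, Stat6 and Il13ra1 were higher and Retnla lower. Chil3, a secreted chitinase-like protein, was at 5974, 5307, 2238 and 3861 CPM against 2024, 4344, 1104 and 3469.8 CPM and 2725, 5189.8, 3044 and 6801 CPM in free RNA, so that it was spread through all droplets and gave a UMI in 94.2% or more of the other barcodes of every mouse. Interferon genes were split, with 5 of 15 higher, among them Stat2, Ifih1, Ddx58 and Trim30a, and 8 lower. Hypoxia genes had 1 of 16 higher (Pfkfb3) and 5 lower, with Vegfa at 88.2, 80.9, 63.3 and 57.1 CPM against 179, 148, 127 and 99.6 CPM. In the Notch list Notch2 was higher, and 11 of 13, among them Jag1 and Hes1, were lower. Over all genes 27.4% were higher and 27.6% lower, and the counts of the lists in this paragraph stand beside these shares.

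**Figure D2:**
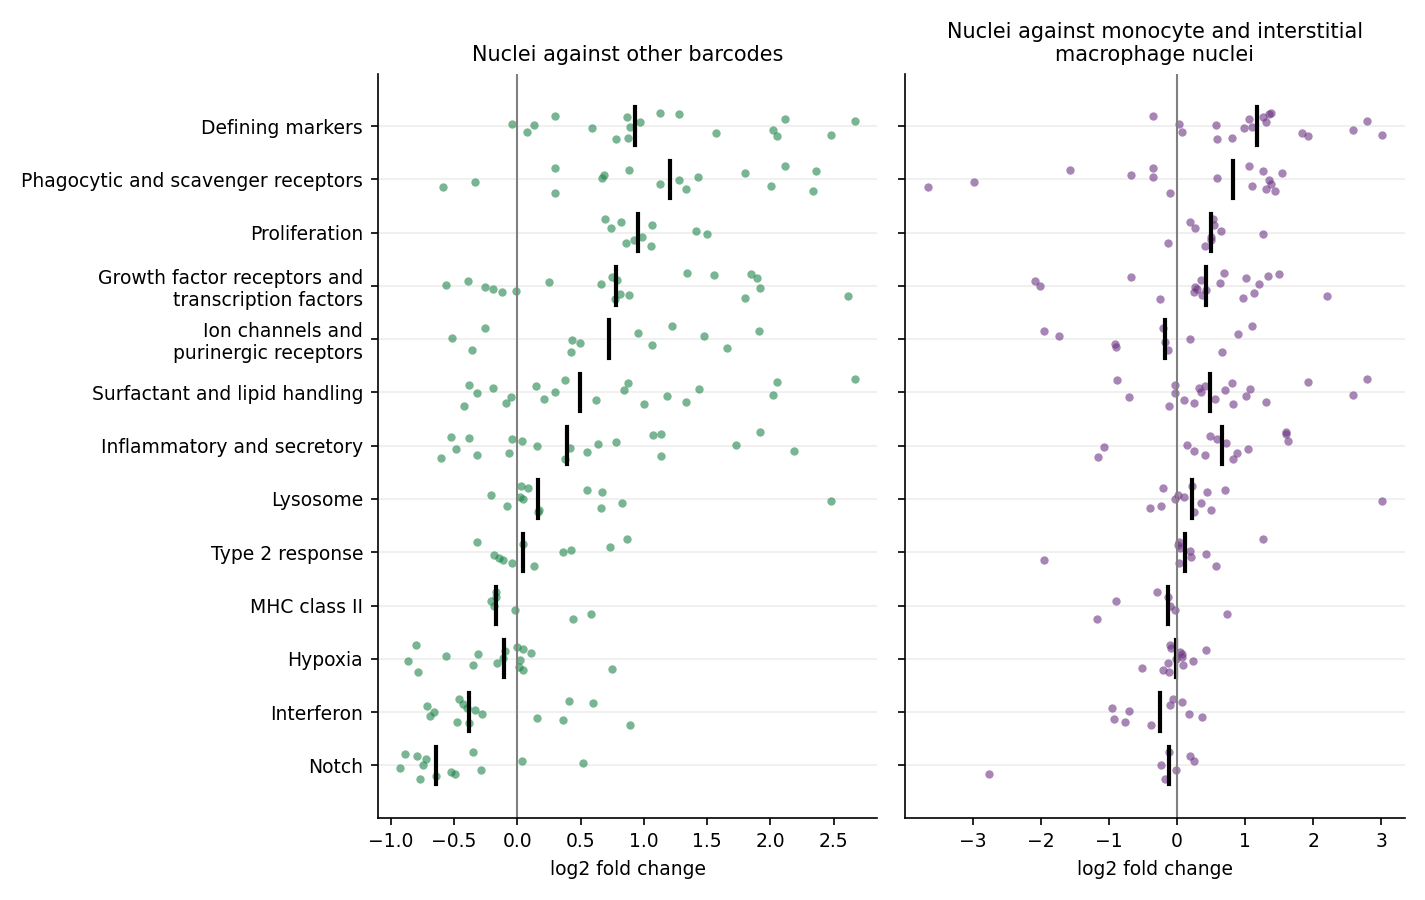
Log2 differences of the nuclei from the other barcodes and from monocyte and interstitial macrophage nuclei, 1 point per gene, for 13 lists, with a bar at the median of each. Against the other barcodes the alveolar macrophage, phagocytic and proliferation lists have medians of 0.93, 1.20 and 0.95 and the Notch list one of -0.64.

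Markers of other cells were measured the same way. All 8 markers of type 2 cells, all 5 of type 1 cells, all 6 of ciliated cells and all 6 of B cells were lower in the nuclei, as were 7 of 8 of T and NK cells, 6 of 7 of fibroblasts, 5 of 8 of pericytes and smooth muscle, 5 of 6 of club cells and 3 of 3 of the mesothelium. They were not at 0: the summed level of the 6 club cell genes was 8596, 8152, 39208 and 14987 CPM in the nuclei and 18884, 16637, 131299 and 41754 CPM in free RNA. Of 17 genes of monocytes and interstitial macrophages 13 were lower and only Treml4 was higher. In the dendritic list Wdfy4 (1.63 ± 0.17) and Clec9a (0.69 ± 0.15) were higher and 5 of 8 were lower. Among 6 endothelial genes that the rule did not use, Flt1, the VEGF receptor 1, was at 438, 372, 355 and 362 CPM in the nuclei and at 140.4, 147, 115 and 131 CPM in the other barcodes (1.63 ± 0.06), and Vwf differed by 0.52 ± 0.11, while Calcrl, Kdr, Ednrb and Shank3 were lower. All 4 Flt1 values of the nuclei lay above those of the other barcodes and of free RNA. Csf3r was the single neutrophil gene of 5 that was higher. Leaving out barcodes with RNA of another lineage by 10 lists removed 5.06, 8.27, 6.95 and 10.0% of the nuclei, and 13.3, 15.6, 26.2 and 20.9% of the other barcodes.

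The nearest relatives in the lung were compared next, as 44, 185, 55 and 113 barcodes with 3 or more of 10 monocyte and interstitial macrophage genes and a share of them 3 times or more that of the near-empty barcodes. Barcodes that met both rules, 0, 14, 8 and 24 of them, were kept as alveolar macrophage nuclei and left out of the relatives. Part of the difference between the classes was thus fixed by the choice. Of 12133 genes tested 12.7% passed (6.56% higher and 6.15% lower), again along a line drawn with such genes. The same 14 of the 18 defining genes were higher, 0 were lower and the median was 1.18, against 0.04 over all genes. Atp6v0d2 was at 146, 167, 98.0 and 187 CPM in the relatives (log2 difference 3.01 ± 0.14) and Pparg at 42.6, 225, 61.9 and 159.5 CPM (2.79 ± 0.20). Of 20 lipid genes 10 were higher and 2 lower (Abca1 and Pltp). Of 16 phagocytic receptors 8 were higher, among them Axl (1.54 ± 0.14) and Mertk (1.26 ± 0.13), and Itgam (-2.99 ± 0.26), Stab1 (-3.66 ± 0.27) and the scavenger receptor Msr1 (-1.57 ± 0.29) were lower. Of 12 genes of macrophages and leukocytes in general, Mertk and Ctss were higher, Adgre1 and Csf1r lower, and 8 did not pass, among them Spi1 (0.27 ± 0.13) and Dock2 (-0.00 ± 0.14). Rbpj, the DNA-binding factor of Notch signaling, was far lower in the alveolar macrophage nuclei, at 226, 212, 100.0 and 165 CPM against 2575, 1024, 1001 and 850.3 CPM (-2.76 ± 0.16), with no overlap between the classes. None of the other 6 Notch genes tested passed. P2rx7 and P2ry6, higher than in the other barcodes, were lower than in these relatives, by -0.91 ± 0.17 and -0.89 ± 0.17. Cd163, the hemoglobin scavenger receptor, had the lowest value of the named genes (-5.24 ± 0.37), at 0.361, 7.76, 2.29 and 1.84 CPM against 122, 128, 268 and 56.2 CPM. Of the genes highest by this measure, Slc6a4, the serotonin transporter, was at 15.5, 33.3, 52.6 and 41.8 CPM against 0, 2.33, 0 and 5.44 CPM (3.75 ± 0.43), with 5 UMIs in all in the relatives.

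Genes with the largest difference from the other barcodes were mostly low in level and little known. Hyal6 and Hyal5, of the hyaluronidase family, led them with log2 differences of 4.22 ± 0.39 and 3.85 ± 0.16. Hyal6 rested on 1, 4, 38 and 29 UMIs. Hyal5 was at 1.08, 2.93, 27.6 and 13.1 CPM against 0.107, 0.147, 1.89 and 1.19 CPM, highest in the Tg mice in both classes. 9530059O14Rik, a lincRNA, was at 112, 88.3, 108 and 131 CPM against 17.9, 14.3, 8.12 and 14.0 CPM (3.18 ± 0.17) and was even across the 4 mice. Gm44079, annotated antisense to Pparg, was at 6.14, 8.04, 73.8 and 33.6 CPM (3.25 ± 0.13). Of the 15 genes with the largest difference 11 have placeholder names only.

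The proliferation genes were higher in the nuclei without exception, 10 of 10 past the threshold and in each of the 4 mice, with a median log2 difference of 0.95. Of all genes tested against the other barcodes, 27.4% passed as higher and 23.1% were higher in each of the 4 mice. Kif15, a mitotic motor, was at 49.1, 39.8, 26.1 and 20.6 CPM against 14.0, 19.5, 7.62 and 9.86 CPM (1.5 ± 0.13), and Mki67, the proliferation antigen, at 28.5, 53.9, 42.7 and 33.6 CPM against 15.6, 44.0, 21.0 and 28.3 CPM (0.69 ± 0.12). UMIs of 3 or more of the 10 genes were present in 10.1, 11.9, 7.03 and 6.67% of the nuclei and in 2.03, 4.72, 1.35 and 2.11% of the other barcodes. After every barcode was thinned to 1500 UMIs the shares were 5.32, 5.33, 4.51 and 2.92% against 0.933, 1.87, 0.634 and 0.728%. The share was higher in the nuclei of every mouse at equal depth, and the free RNA estimated for them was lower. Against monocyte and interstitial macrophage nuclei only Kif15 (1.26 ± 0.31) and Diaph3 (0.49 ± 0.15) of the 10 passed.

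The first comparison between genotypes was of number. Alveolar macrophage nuclei made up 2.86% (95% Wilson interval 2.67 to 3.06), 9.54% (9.25 to 9.84), 19.5% (19.0 to 20.0) and 19.1% (18.8 to 19.5) of the barcodes with 1500 or more UMIs. Both Tg mice lay above both WT mice, at 19.3 ± 0.253% against 6.20 ± 4.73% (SD, n = 2), a difference of 13.1 percentage points. It was 8.20 points for nuclei chosen at 1000 or more UMIs. With all barcodes of 1000 or more UMIs as the denominator it was 7.94 points. The value of WT 2 depended on the limits of the rule: with no limit on the share of the 8 genes, chosen after seeing the data, the 4 mice were at 3.27, 17.5, 19.6 and 21.3%, and among barcodes with 3000 or more UMIs at 6.67, 19.1, 22.3 and 27.6%. The exact two-sided permutation test gave p = 0.33, the smallest that 2 against 2 mice allow, so the difference could not pass the test. The intervals of WT 1 and WT 2, which cover counting error only, lay far apart. The share of the denominator that is nuclei is not known, the share of the 8 genes in the near-empty barcodes differed between libraries (0.135, 0.267, 0.0824 and 0.150%), and the number of cells, the recovery of their nuclei and the RNA in each cannot be told apart. Chosen without Gm27008, which was higher in Tg, the nuclei made up 2.77, 9.42, 18.4 and 18.3%.

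**Figure D3:**
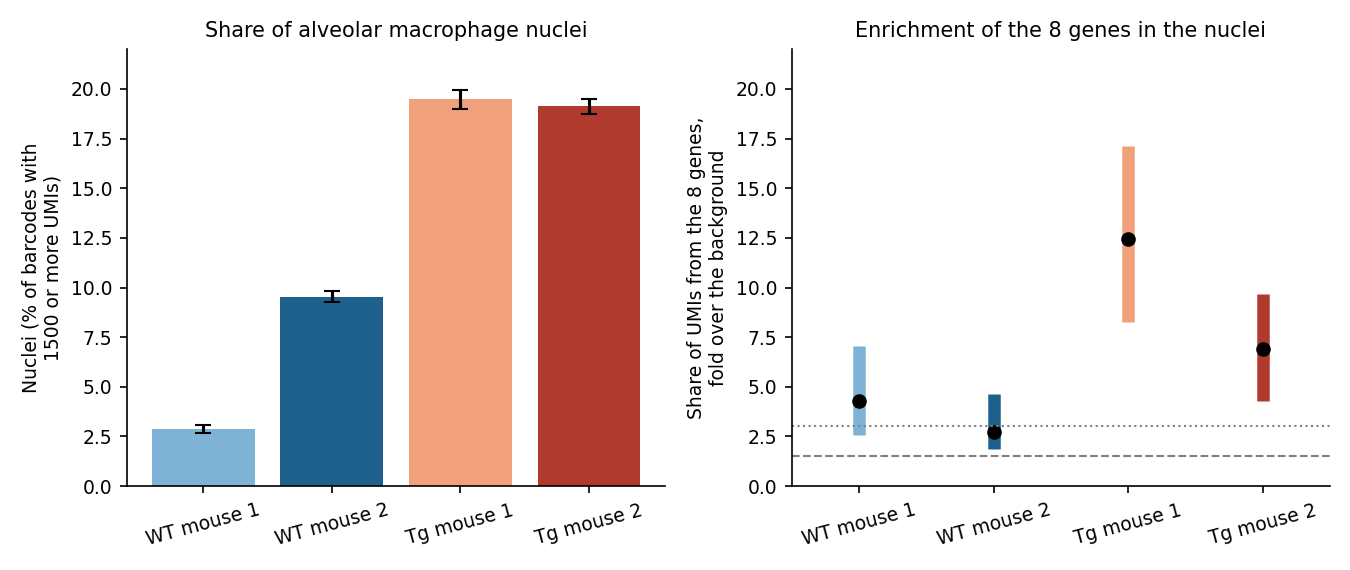
Left, share of alveolar macrophage nuclei among barcodes with 1500 or more UMIs in each mouse, with 95% Wilson intervals; right, median and quartiles of the share of UMIs from the 8 genes over that of near-empty barcodes, with lines at 1.5 and 3. WT mice are at 2.86 and 9.54% and Tg mice at 19.5 and 19.1%.

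Terf2, the gene of TRF2, was at 58.5, 62.3, 56.5 and 57.7 CPM in the nuclei, with a log2 change of -0.13 ± 0.15 in Tg (edgeR, adjusted p = 0.6). The promoter of the transgene is endothelial, so this value does not check the genotype labels.

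Between genotypes, 615 of 17028 genes passed in the nuclei (edgeR, 3.61%), 580 of them higher in Tg (3.41%) and 35 lower (0.206%). Gm27008, which helped choose the nuclei, is counted among the 580 and supports nothing. The 580 were at low levels, with medians of 5.78, 6.50, 35.0 and 23.6 CPM. The same 580 genes in the other barcodes of the same mice were at medians of 5.55, 5.74, 31.5 and 23.0 CPM, and in free RNA at 5.75, 5.00, 13.8 and 18.4 CPM. Their median log2 ratio of Tg to WT was 2.00 in the nuclei, 1.82 in the other barcodes and 1.47 in free RNA. For the 35 that were lower, these medians were -1.46, -1.38 and -1.69. In the other barcodes these medians lay near those of the nuclei, and in free RNA the median of the 580 was lower. A test of whether the change differed between the nuclei and the other barcodes passed for 0 of 20329 genes (edgeR, with 1411 at an unadjusted p under 0.05). The count for this difference was 6 with DESeq2, 248 with no filter on low counts, 528 without Tg 2 and 990 without the highest doublet scores. The count of 615 depended on the mice: without Tg 1, 0 genes passed (1653 at an unadjusted p under 0.05), without Tg 2, 207 did, without WT 1, 1635 did and without WT 2, 2437 did. After the estimated free RNA was subtracted, 2 genes passed. DESeq2 called 1236 higher and 458 lower.

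RNA of the cytoplasm, of mitochondria and of red cells moved with genotype, in 4 families taken by gene symbol after the values were seen. Of 81 ribosomal protein genes tested 39 rose and 0 fell, and their summed level was 3759, 8857, 24739 and 22939.9 CPM in the nuclei and 8279.7, 18142, 75361 and 61436 CPM in free RNA. Of 73 nuclear genes of the respiratory chain 40 rose and 0 fell, and of 13 genes of the mitochondrial genome 12 rose. All 4 hemoglobin genes tested rose, from 118 and 128 CPM in WT 1 and WT 2 to 2412 and 1631 CPM in Tg 1 and Tg 2, with 295, 318, 7839 and 4688 CPM in free RNA. Both Tg mice were above both WT mice for each sum in the nuclei, in the other barcodes and in free RNA. The part of this RNA in the other changes was not tested.

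**Figure D4:**
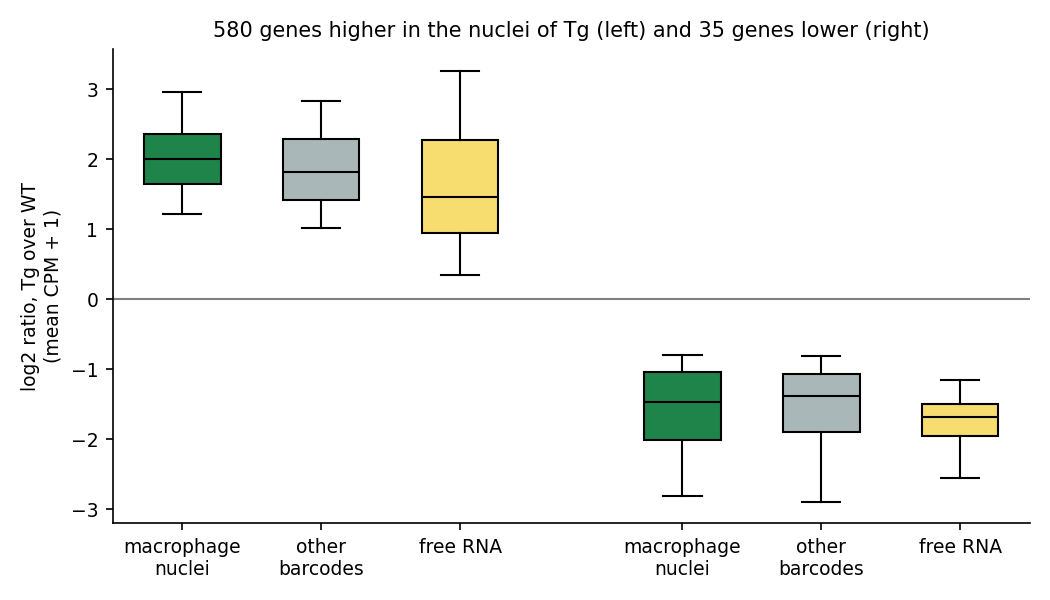
Log2 ratio of Tg to WT (means of 2 mice, CPM + 1) of the genes called in the nuclei, measured in the nuclei, the other barcodes and free RNA; boxes are quartiles and whiskers the 5th to 95th percentile. The medians of the 580 higher genes are 2.00, 1.82 and 1.47 and those of the 35 lower genes -1.46, -1.38 and -1.69.

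Annotated antisense genes made up 218 of the 580 genes that rose. Of 1110 annotated such genes tested 19.6% rose, against 316 of 14511 protein-coding genes (2.18%) and 25 of 769 lincRNAs (3.25%). Antisense genes took 0.741, 0.721, 1.48 and 1.15% of the UMIs of the nuclei, 0.803, 0.738, 1.55 and 1.13% of those of the other barcodes and 0.725, 0.615, 0.553 and 0.650% of free RNA. Their share was higher in both Tg mice in both classes and was not in free RNA, and genotype and library cannot be told apart for it. Whether the counts kept strand is not stated in the sources used here. Whether reads of a gene entered the count of its antisense partner was not tested. At Pparg, for instance, the antisense gene Gm44079 rose by 2.82 ± 0.43 (adjusted p = 0.037) and Pparg itself had 0.13 ± 0.22 (adjusted p = 0.74).

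Of the 18 defining genes of alveolar macrophages 0 passed, where 3.61% of all genes did, so that this count says nothing particular to them. Their median log2 change was 0.46 against 0.03 over all genes, and Pparg, Atp6v0d2 and Mrc1 had changes between -0.19 and 0.13. Larger changes that missed the threshold were those of Slc7a2, an arginine transporter, at 1686, 936, 424 and 573 CPM (-1.44 ± 0.33, adjusted p = 0.071) and Fabp1 at 2.53, 10.8, 65.7 and 36.1 CPM (2.66 ± 0.55, adjusted p = 0.057). WT 1 was far from WT 2 for some genes, as for Marco at 18.8, 116, 37.8 and 60.5 CPM and, outside the 18, for Mmp12, a macrophage elastase, at 639, 124, 10.9 and 69.7 CPM. In the lists of function the genes that passed were few. Csf2ra rose, at 57.1, 60.1, 166 and 124 CPM (1.26 ± 0.20, adjusted p = 0.039), and it was also higher in Tg in the other barcodes (23.7, 39.5, 42.7 and 60.2 CPM) and in free RNA (27.6, 43.8, 76.3 and 96.0 CPM). Fabp5, a fatty acid binding protein, rose (1.09 ± 0.18), as did the ferritin chains Ftl1 (2.74 ± 0.35) and Fth1 (2.59 ± 0.43), with adjusted p from 0.031 to 0.039. In the list of 8 iron and heme genes 2 changes were positive and 6 negative, with a median of -0.07. Ftl1 was at 49.1, 100.1, 579 and 465 CPM in the nuclei and at 87.6, 179.9, 1796 and 1255 CPM in free RNA. The calls of Csf2ra, Fabp5, Ftl1 and Fth1 depended on Tg 1, and those of Fabp5 and Fth1 on Tg 2 as well. Changes of these 4 genes were 1.02 to 2.57 without Tg 1 and 1.12 to 2.90 without Tg 2. After free RNA was subtracted the changes were 1.00 for Csf2ra, 0.70 for Fabp5, 0.90 for Ftl1 and 1.59 for Fth1, with adjusted p from 0.13 to 0.40. Single genes of other lineages rose with them, 1 of 8 type 2 cell markers (Sftpc, 2.46 ± 0.44), 1 of 5 type 1 cell markers (Ager, 1.09 ± 0.19) and 1 of 3 mesothelial markers (Msln, 1.46 ± 0.19), each higher still in the free RNA of both Tg mice. The median changes of the 3 lists were 0.19, 0.65 and 1.35, with 5 of 8, 3 of 5 and 3 of 3 positive. In the lists of other cells without a gene that passed, the median was 1.66 for club cells (5 of 6 positive), 1.05 for neutrophils (5 of 5), 0.68 for pericytes and smooth muscle (7 of 7), 0.18 for ciliated cells (4 of 6) and 0.06 for fibroblasts (4 of 7). It was -0.24 for endothelial genes (5 of 6 negative), -0.30 for T and NK cells (7 of 8), -0.79 for monocytes and interstitial macrophages (15 of 17), -0.85 for dendritic cells (7 of 8) and -1.22 for B cells (6 of 6). Subtracted counts below 0 were set to 0, so very large changes after it can rest on the prior count of the fit and are no bound. After the subtraction the changes were 2.42 for Sftpc, 0.43 for Ager and 10.08 for Msln, and none passed (edgeR, adjusted p = 0.51, 0.88 and 0.089). Their part in the other changes was not tested. None of 13 Notch, 16 hypoxia, 12 arrest and p53, 16 phagocytic, 13 lysosome and 7 MHC class II genes tested passed, and with 3.61% of all genes passing, lists of this length need not hold any. Cdkn1a, the senescence-linked inhibitor p21, was at 38.3, 40.5, 45.7 and 64.0 CPM (0.43 ± 0.20, adjusted p = 0.22).

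In the proliferation list 2 of 10 genes fell in Tg, Diaph3 and Pola1, where 0.206% of all genes fell, and 8 did not pass. All 10 changes were negative, with a median of -0.71 against 0.03 over all genes. The B cell, dendritic, and monocyte and interstitial macrophage lists moved with them in the same nuclei, at medians of -1.22, -0.85 and -0.79 with no gene past the threshold, and their part in the result was not tested. Diaph3, a formin needed for cytokinesis (chr14:86655367-87141235), was at 189, 139.8, 66.0 and 68.4 CPM (-1.33 ± 0.19, adjusted p = 0.034), and Pola1, the catalytic subunit of DNA polymerase alpha, at 160.1, 162, 93.0 and 87.6 CPM (-0.88 ± 0.15, adjusted p = 0.039). Kif15 (-0.96 ± 0.21, adjusted p = 0.066) and Mki67 (-0.19 ± 0.30, adjusted p = 0.71) did not pass. Among the 10 largest falls of genes at 1.5 times or more the free RNA of both WT mice, 4 more are known from division or DNA repair, a grouping made after their values were seen. Depdc1a, a mitotic factor, was at 14.8, 13.7, 5.38 and 4.71 CPM (-1.54 ± 0.26). Neil3, a DNA glycosylase, was at 44.8, 42.8, 21.4 and 19.6 CPM (-1.14 ± 0.17). Mms22l, a repair factor at stalled forks, was at 59.6, 53.7, 31.1 and 29.5 CPM (-0.94 ± 0.16), and Cenpp, a centromere protein, at 71.2, 73.9, 40.1 and 34.7 CPM (-1.0 ± 0.16). The 10 falls were named among genes that do not overlap between genotypes, so that their separation is part of the choice. The calls of these 6 genes depended on each Tg mouse. Their changes were -0.93 to -1.64 without Tg 1 and -0.83 to -1.44 without Tg 2. After free RNA was subtracted their changes were larger, at -1.55 for Diaph3, -1.07 for Pola1, -1.87 for Depdc1a, -1.42 for Neil3, -1.11 for Mms22l and -1.26 for Cenpp, with adjusted p from 0.067 to 0.11. These genes were lower in Tg in the other barcodes too, with Neil3 at 12.5, 18.4, 3.70 and 6.66 CPM and Diaph3 at 85.0, 91.5, 35.7 and 44.9 CPM, and in free RNA, with Diaph3 at 83.3, 86.8, 20.5 and 31.0 CPM.

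The other falls were of mixed function. Taco1, a translational activator of mitochondrial cytochrome oxidase (chr11:106066061-106073612), was at 809, 329, 118 and 125 CPM (-2.27 ± 0.42, adjusted p = 0.046). Tmem267, the largest of these 10, was at 36.1, 11.7, 2.10 and 2.99 CPM (-3.19 ± 0.58), and Rnf19b, a ubiquitin ligase, was at 322, 157, 44.5 and 71.4 CPM (-2.08 ± 0.39). For Tmem267 and Taco1 the level in WT 1 was far above that in WT 2. Ms4a8a, a membrane protein, was at 510.1, 446, 258 and 234 CPM in the nuclei and 83.9, 128, 35.6 and 59.2 CPM in the other barcodes (-1.0 ± 0.18), which makes it a gene both high in alveolar macrophages and lower in Tg. Gvin1, an interferon-induced GTPase, fell (-1.28 ± 0.19). In the interferon list 14 of 15 changes were negative and 1 of the 15 passed. The summed level of this list was 640, 537, 392 and 408 CPM in the nuclei. It was lower in both Tg mice also in the other barcodes (509, 517, 335 and 376 CPM) and in free RNA (529, 548, 315 and 382 CPM). Ccl24 at 19.1, 6.99, 0.656 and 1.15 CPM (-3.76 ± 0.61) and Ccl2 at 3.61, 3.35, 0.721 and 0.634 CPM (-2.39 ± 0.43) were the chemokines that fell, both from low levels, and Trpm2, a calcium channel, fell by 2.22 on the log2 scale. Adjusted p of these genes was 0.037 to 0.049 (edgeR), and their calls depended on each Tg mouse. Their changes were -1.08 to -3.49 without Tg 1 and -0.93 to -4.27 without Tg 2.

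**Figure D5:**
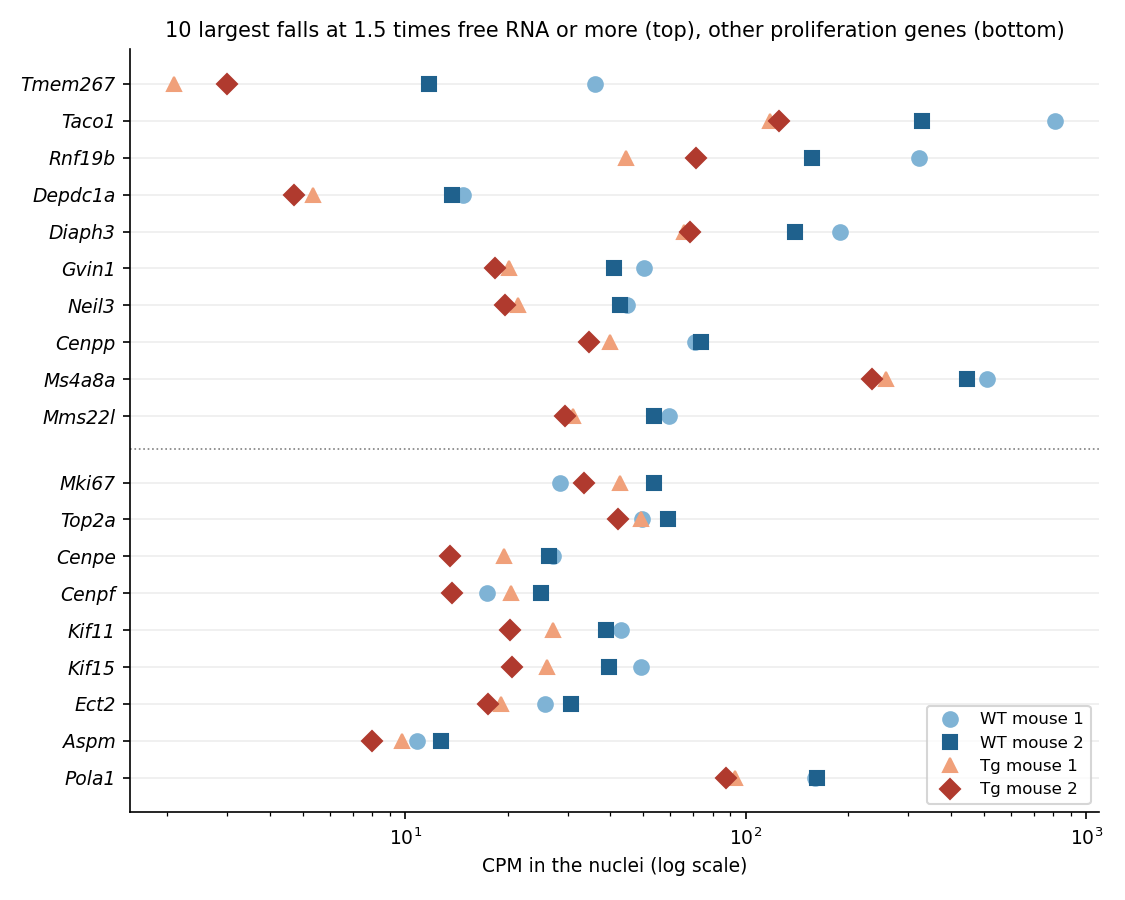
Levels in the nuclei of each mouse, in CPM, of the 10 largest falls in Tg among genes at 1.5 times or more the free RNA of both WT mice, and of the other 9 proliferation genes. The 10 falls were chosen among genes that do not overlap between genotypes, and of the other genes shown Mki67 and Cenpf overlap.

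The 10 largest rises among genes at 1.5 times or more the free RNA of both Tg mice came from genes nearly absent in WT. The hemoglobin genes, higher in free RNA, are outside this limit. Gm42953, a lincRNA (chr5:126797255-126815482), had 0, 0, 29 and 56 UMIs, and against a floor of 3 UMIs over the WT mice its level was at least 10.0-fold higher in Tg. Gm15632, antisense to the ketone body enzyme gene Oxct1 (chr15:4069226-4072032), had 0, 0, 26 and 50 UMIs, at least 8.94-fold higher. Gm47460, antisense to Atxn1 (chr13:45749572-45755206), was at 0.723, 0.419, 12.8 and 6.22 CPM (4.24 ± 0.62, edgeR, adjusted p = 0.034). Stmn3, a microtubule regulator better known from neurons, had 0, 1, 65 and 75 UMIs, and Sult6b1, a sulfotransferase, had 0, 2, 53 and 70 UMIs. The other 5, Gm45345, Gm37468, Tmem132cos, AC171003.1 and Gm47134, had 0 to 3 UMIs in each WT mouse and 23 to 140 in each Tg mouse. Of the 10, 5 are annotated antisense. Adjusted p of the 10 was 0.034 to 0.049 (edgeR). The 10 were named among genes that do not overlap between genotypes, so that their separation is part of the choice. With few or no UMIs in WT they passed the filter on low counts through the Tg mice. The calls depended on Tg 1, and most of them on Tg 2 as well. Their log2 changes were 3.59 to 7.81 without Tg 1 and 4.41 to 7.35 without Tg 2. All 10 were higher in Tg in the other barcodes too. As log2 ratios of mean CPM + 1, they rose there by 0.24 (Gm47134) to 2.14 (Gm42953). On the same scale the rises in the nuclei were 1.22 (Tmem132cos) to 2.75 (Gm47460).

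The genotype change of the nuclei was also set against that of free RNA in a test of the difference itself. It differed for 3057 of 18961 genes (edgeR, 16.1%), more positive in the nuclei for 1623 (8.56%) and more negative for 1434 (7.56%). This split was 1962 and 798 with the 3-fold share limit and 2072 and 771 without barcodes holding RNA of other lineages. The alveolar macrophage genes were on the negative side, with 12 of 18 defining genes passing (median -0.86 against -0.01 over all genes), among them Chil3, Siglecf, Itgax, Lpl and Abcg1. For these genes Tg free RNA was higher relative to WT free RNA than the nuclei were to theirs. Siglecf was at 3.26, 14.9, 34.0 and 40.1 CPM and Abcg1 at 84.8, 274, 319.8 and 452 CPM in free RNA, with both Tg mice above both WT mice. Lysosome genes showed the same for 9 of 13 and MHC class II genes for 6 of 7. With free RNA taken from barcodes with 10 to 100 UMIs in its place, 0 of 12909 genes passed (353 at an unadjusted p under 0.05, edgeR).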

How the data were processed

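Lungs of 2 WT and 2 Tg mice were profiled by single-nucleus RNA sequencing, 1 library per mouse. The authors deposited raw UMI counts per gene and barcode, 1 unfiltered matrix per mouse, made with Cell Ranger 6.1.1 on mm10 per the submitters' processing notes, with intronic reads included per the study's methods, and with no normalization. Counts therefore also cover droplets without a nucleus and unspliced RNA, and whether strand was kept is not given in the sources used here. The study removed multiplets within its own clusters, not in the matrices used here. Of 32285 features 32235 matched GENCODE M21 by identifier, which gave the GRCm38 coordinates and gene types.

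Alveolar macrophage nuclei were chosen by the depth and 12-gene rule stated above. The members, gene lists and tests were chosen with earlier results of these data known. Counts were summed per mouse over the nuclei, the other barcodes, the monocyte and interstitial macrophage nuclei, and free RNA (barcodes ranked after the first 45000 and up to 90000 by UMIs). The sums were tested with the quasi-likelihood test of edgeR 4.0.16 in R 4.3.3 (TMM normalization, filterByExpr with a minimum count of 10, Benjamini-Hochberg adjustment over all genes tested, threshold 0.05). The genotype fit used the 4 sums of the nuclei. Differences between genotype changes were interaction terms, and differences between classes were fitted with a term for each mouse. Errors are standard errors of the log2 change. The labels give only a replicate number, so p-values measure the spread between these samples. The share of nuclei was compared by an exact permutation test in scipy 1.17.1 under Python 3.11.15, and intervals cover counting error only. Total counts over the nuclei were 2767866 to 33116348 UMIs per mouse.

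The genotype comparison was tested on data simulated for its 17028 genes. Of 200 genes changed 2-fold 11% were recovered, and of 200 changed 4-fold 94%. The simulation gave every gene the same dispersion and equal numbers of rises and falls. In that setting small changes were seldom seen with 4 mice, and the rates need not hold for the data themselves.

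Named for genotype were the 10 largest rises and falls among genes that passed, did not overlap between genotypes and, in both mice of the higher genotype, were at 1.5 times or more the free RNA of the same mouse. For the difference from free RNA the 5 largest of each sign were named, for the other barcodes the 15 largest differences, and for monocyte and interstitial macrophage nuclei the 10 largest of each sign, the genes that chose either class and mitochondrial genes left out. From each list the 3 genes with most UMIs and those called for genotype were also candidates, together with Terf2, Cdkn1a and Notch genes. Other genes of the lists were named after their values were seen, and some genes that the rule selects are not reported here.

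Alternatives were DESeq2 1.42.0, no filter on low counts, a replicate block, leaving out each mouse, other depth and share limits, thinning to 1500 UMIs, free RNA subtraction, and removal of doublets by the lists of other lineages or by co-expression scores (cxds, 0.8% per 1000 barcodes). The last was set by this rate to remove 21.5, 30.8, 20.2 and 35.2% of all barcodes with 1500 or more UMIs, which can include droplets without a nucleus. It removed 46.1, 48.4, 29.0 and 50.9% of the nuclei. These shares follow from the setting and do not measure the share of doublets. Doublets were kept otherwise.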

Additional observations from a re-analysis of the deposited data

Results flagged for a closer look

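For 10 genes the change between genotypes differed most between the nuclei and free RNA, by an interaction term in edgeR over 18961 genes, with adjusted p from 0.0047 to 0.049. The log2 difference was 8.53 for Gm43847, 8.27 for Prelid3a, 7.14 for Gm15632, 6.82 for Cntn6 and 6.32 for Gm12082, more positive in the nuclei. Each of these 5 genes had 0 UMIs in the nuclei of both WT mice and 8 to 50 in those of each Tg mouse, so the sizes depend on the prior count of the fit and are no bound. Against a floor of 3 UMIs over the WT mice the level in the nuclei was at least 3.65-fold higher in Tg for Gm43847, 2.82-fold for Prelid3a, 8.94-fold for Gm15632, 1.88-fold for Cntn6 and 8.00-fold for Gm12082. The difference was more negative in the nuclei for Gm12786 (-5.46), Gm10800 (-3.35), Cnga1 (-3.12), Dchs1 (-2.55) and Rasl10a (-2.43). Cnga1, a cyclic nucleotide-gated channel, had 7, 16, 1 and 12 UMIs in the nuclei and 0.923, 0.628, 0.893 and 0.874 CPM in free RNA. Gm12786 was at 0 in the free RNA of both WT mice. All 10 genes were at 2.53 CPM or less in the nuclei of every mouse. With free RNA from barcodes with 10 to 100 UMIs no gene of 12909 passed (edgeR, 353 at an unadjusted p under 0.05).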

How the results depend on the processing

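For the genotype change in the nuclei (615 genes called), counts were 0 to 2437 when 1 mouse was left out, 1694 with DESeq2, 3426 with no filter on low counts, 946 with nuclei chosen after thinning to 1500 UMIs, 1835 (976 higher and 859 lower) without the highest cxds scores and 2 after free RNA was subtracted. With the 3-fold share limit and subtraction together, chosen after seeing the data, 22 were called. With a replicate block 678 were called, 537 of them shared, and the differences between the mice of a genotype did not pair by number (correlation -0.0037). For the difference from free RNA (3057 called), counts were 754 to 4054 without 1 mouse, 1962 with DESeq2 and 0 with free RNA from barcodes with 10 to 100 UMIs. For the difference from the other barcodes (0 called), they were 0 to 528 without 1 mouse, 6 with DESeq2, 248 with no filter, 4 with the 3-fold share limit, 17 without barcodes holding other lineages' lists and 990 without the highest cxds scores. Against the other barcodes (10587 called), 2725 were called with no replicate block, 5991 after subtraction and 5401 without the highest cxds scores. Against monocyte and interstitial macrophage nuclei (1542 called), 493 were called with no replicate block and 948 to 1738 without 1 mouse. The difference in share of 13.1 percentage points was 8.20 with 1000 or more UMIs, 7.94 over all barcodes with 1000 or more UMIs, 9.76 to 16.4 without 1 mouse 10.1 with no limit on the share of the 8 genes (chosen after seeing the data) and 10.6 to 15.6 otherwise. Changes of sign with a call in either setting came for the genotype change of Slc34a2 (15.19 after subtraction and 14.92 with the 3-fold share limit as well) and of Marco (-1.27 to 1.35 without 1 mouse, positive without WT 2), and for H2-Ab1 against the other barcodes (0.46 after subtraction). Subtracted counts below 0 were set to 0, so the sizes for Slc34a2 can rest on the prior count of the fit and are no bound. Of 1857 values of 125 named genes for genotype, 1573 kept their side of the threshold, 164 lost the call, 117 gained one and 3 changed sign with a call. The causes were not tested. The 2767866 UMIs of WT 1 limit genes of a few CPM most.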
